A study of Homo sapiens with 8 samples.

Results

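The MYC, MAX and MXD network was followed across 8 mRNA-seq libraries of HCT116 cells, a human colorectal carcinoma line. The 10 members are MYC, MYCN, MAX, MXD1, MXD3, MXD4, MXI1, MNT, MLX and MGA, and each is the row with that symbol in the deposited count tables. All 10 were found among the 42125 genes of one table and again among the 23393 genes of the other. The cells of every group stably carry a Tet-On shRNA against UBA2 (SAE2), the catalytic subunit of the E1 enzyme that activates SUMO. In the siRNA experiment, cells received control siRNA or TFAP2C siRNA (TFAP2C KD) for 48 hrs, with 2 libraries per group. In the Dox experiment, cells were kept for 5 days either without Dox (no Dox control, labelled as treated with DMSO) or with 1 μg/mL of Dox (labelled UBA2 KD), again with 2 libraries per group. The controls of the siRNA experiment carry the shRNA cassette too. No group received Dox without carrying the shRNA, so exposure to Dox and induction of the shRNA cannot be told apart. Nothing in the labels says that replicates came from separate cultures, so the p-values measure only the spread between these libraries, which may be technical.

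MYC is a basic helix-loop-helix leucine zipper transcription factor that binds DNA as a dimer with MAX and activates genes of growth, nucleotide and ribosome synthesis. MXD proteins, MXI1, MNT and MGA also pair with MAX, occupy the same E-box sites and repress, so the output of the network depends on which partner MAX carries. In colorectal cancer cells MYC transcription is driven by WNT signalling and by distal enhancers, and the study asked how SUMOylation and TFAP2C act on such enhancers.

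Library size was 20785035 to 24465109 counts in the siRNA experiment and 18213739 to 20607813 in the Dox experiment, and 14991 and 13381 genes passed the filter on low counts. TFAP2C mRNA fell from 18.9 and 20.5 CPM (counts scaled to a common library size) with control siRNA to 3.46 and 4.3 CPM in TFAP2C KD, a log2 fold change of -2.34 ± 0.13 (SE, n = 2 per group, edgeR adjusted p = 7.67e-06). UBA2 mRNA did not follow its label, at 162 and 146 CPM without Dox and 147 and 153 CPM with Dox (log2 fold change -0.036, 95% interval -0.15 to 0.078, edgeR adjusted p = 0.766), and these libraries are therefore called labelled UBA2 KD throughout. The TFAP2C KD libraries stood further apart than any other pair, with a chi-square per degree of freedom of 9.98 between them against 2.66 to 2.87 in the other 3 groups. Of 13 markers of colon epithelium, 10 passed the filter in each experiment. Their summed level was 3260 to 3390 CPM with control siRNA, 3580 to 3870 CPM in TFAP2C KD, 2360 to 2380 CPM without Dox and 2580 to 2670 CPM in labelled UBA2 KD. None of them passed the test in TFAP2C KD, where 0.74% of all genes passed. In labelled UBA2 KD 3 were called higher and 2 lower, against 5.52% and 4.47% of all genes. KRT18, KRT8 and EPCAM rose by 0.25, 0.18 and 0.15 and ELF3 and CLDN4 fell by 0.54 and 0.17 on the log2 scale. KRT19 lay at 1160 to 1460 CPM in the siRNA experiment and at 143 to 175 CPM in the Dox experiment. CDX1 had no counts in the Dox experiment, and CDH17 and VIL1 had at most 0.144 CPM in any library. Markers of blood, endothelial and stromal cells summed to 60.9 to 65 CPM in the siRNA experiment and 23.7 to 31.9 CPM in the Dox experiment. COL1A1 was the highest of them, at 43.2 to 47.5 CPM and 14.9 to 21.8 CPM. ACTA2 lay at 13.2 to 15.5 CPM and 2.26 to 2.97 CPM, while COL1A2 and DCN were at 0 in both. Of the 12 markers, 5 passed the filter in the siRNA experiment and 3 in the Dox experiment, and 0 of those were called. The part of either set of markers in the results was not tested.

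The promoters of the network were read from RefSeq (GRCh38.p14), as the 250 bases before each transcription start. There were 14 such promoters for 9 of the members, and MYC had no entry. The E-box CACGTG, the site that MAX dimers bind, was present in 3 of the 14, those of MXD4, MNT and MLX, against 6.34% of all 35116 promoters of this length. GCCNNNGGC, the palindrome bound by AP-2 factors such as TFAP2C, was present in 6 of the 14, belonging to MXD3, MXD4, MXI1, MNT and MGA, against 19.8% of all promoters. Each motif is its own reverse complement, so a match covers both strands. The sequences of the 3 promoters with an E-box are shown because the network's own dimers bind that site. MXD3 is shown because its promoter, like that of MXD4, holds 2 copies of the AP-2 motif. Capitals mark both motifs. MNT lies at chr17:2401061-2401310, MXD4 at chr4:2262110-2262359 and MXD3 at chr5:177312753-177313002, all on the minus strand, and MLX at chr17:42566850-42567099 on the plus strand.
MNT: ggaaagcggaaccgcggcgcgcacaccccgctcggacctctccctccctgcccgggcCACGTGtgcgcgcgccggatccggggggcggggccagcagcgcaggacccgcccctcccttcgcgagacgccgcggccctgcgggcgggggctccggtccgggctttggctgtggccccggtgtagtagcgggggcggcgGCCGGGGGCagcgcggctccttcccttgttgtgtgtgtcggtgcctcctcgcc
MXD4: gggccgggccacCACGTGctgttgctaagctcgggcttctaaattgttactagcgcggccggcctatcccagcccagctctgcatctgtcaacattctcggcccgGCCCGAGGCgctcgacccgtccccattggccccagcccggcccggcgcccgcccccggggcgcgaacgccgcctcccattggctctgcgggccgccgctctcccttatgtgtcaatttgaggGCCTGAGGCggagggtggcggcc
MLX: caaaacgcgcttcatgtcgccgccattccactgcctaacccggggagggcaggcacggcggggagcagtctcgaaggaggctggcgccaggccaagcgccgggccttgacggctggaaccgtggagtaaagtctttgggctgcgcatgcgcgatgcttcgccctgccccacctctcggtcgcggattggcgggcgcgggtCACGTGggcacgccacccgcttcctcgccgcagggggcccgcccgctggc
MXD3: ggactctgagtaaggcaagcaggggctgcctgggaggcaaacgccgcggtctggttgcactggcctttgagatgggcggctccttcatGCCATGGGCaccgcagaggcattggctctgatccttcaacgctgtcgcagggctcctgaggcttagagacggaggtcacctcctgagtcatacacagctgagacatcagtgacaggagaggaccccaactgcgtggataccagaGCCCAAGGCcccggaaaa
The E-box of MLX lies 50 to 45 bases before the start, that of MNT 193 to 188 bases and that of MXD4 238 to 233 bases before it. The AP-2 motifs of MXD3 lie 162 to 154 and 18 to 10 bases before the start. A match of letters is a description of the promoter and says nothing on whether a factor was bound in these cells.

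Among the network genes, MYC was by far the most abundant in both controls. Its CPM divided by the transcript length in kb of each table (RPKM) was 112 RPKM with control siRNA and 162 RPKM without Dox, which ranks it 212th of 14991 and 268th of 13381 genes tested. MLX followed at 21.8 and 35.2 RPKM. MXI1 stood at 16.7 and 15.8 RPKM, MXD4 at 13.5 and 4.55 RPKM and MAX at 9.32 and 17.3 RPKM. MNT lay at 6.94 and 6.76 RPKM and MGA at 5.32 and 8.41 RPKM. The lowest detected antagonists were MXD3 at 4.38 and 3.99 RPKM and MXD1 at 2.69 and 1.13 RPKM. MAX, the shared partner, was thus far below MYC at the mRNA level. MYCN (chr2:16080683-16087129 in hg19), the paralogue that drives neuroblastoma, had 0 counts in all 8 libraries, which allows up to 0.123 to 0.144 CPM per library in the siRNA experiment and 0.144 to 0.167 CPM in the Dox experiment (3 counts, counting error only). It was therefore not tested.

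**Figure D1:**
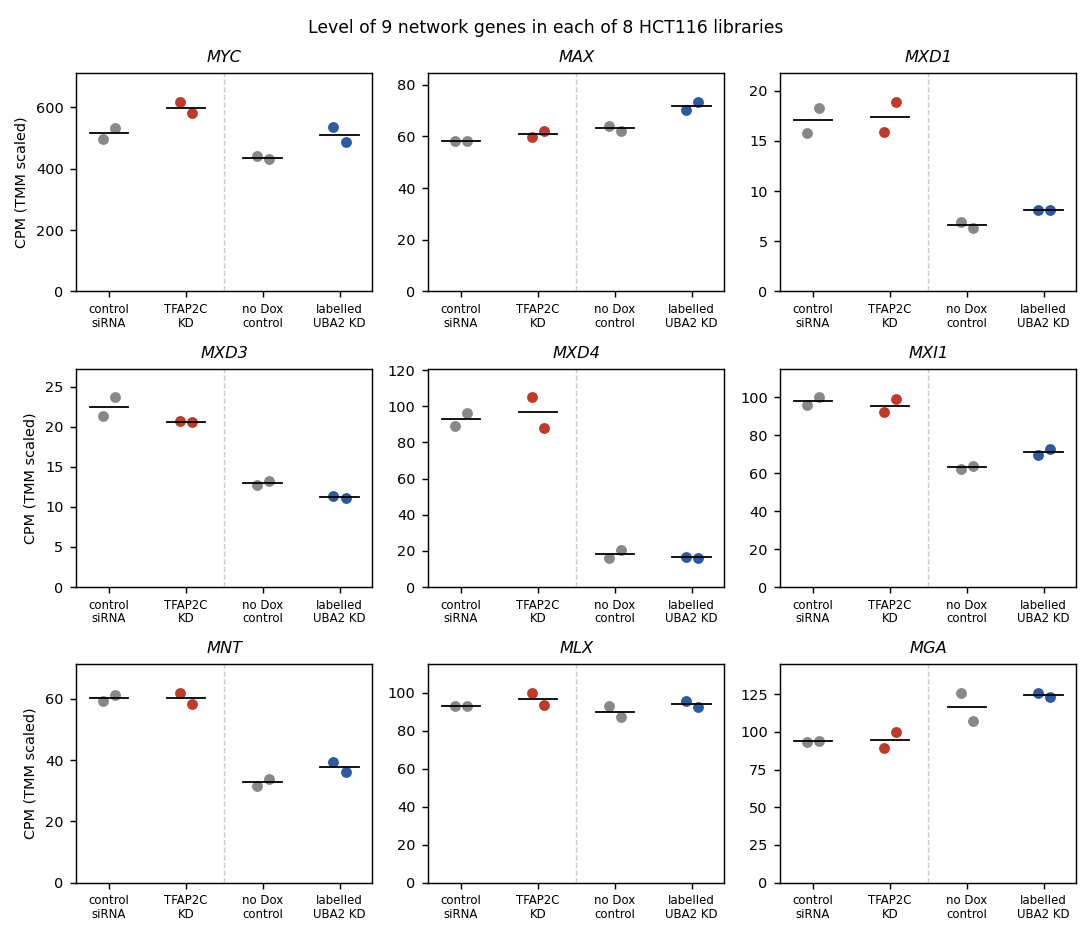
Level of the 9 detected network genes in each library, in CPM after TMM scaling, with 1 panel per gene and the y axis starting at 0. Points are libraries, black lines are group means (n = 2), and the dashed line separates the siRNA experiment from the Dox experiment. MYC lay at 498 and 531 CPM with control siRNA against 618 and 580 CPM in TFAP2C KD, and at 440 and 431 CPM without Dox against 535 and 486 CPM in labelled UBA2 KD.

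MYC (chr8:128747765-128753680 in hg19, plus strand) was higher in both knockdown libraries than in both controls in each experiment, by a similar amount. With control siRNA it measured 498 and 531 CPM, and in TFAP2C KD 618 and 580 CPM, a mean of 514 ± 23.6 against 599 ± 27.2 CPM (SD, n = 2). The log2 fold change was 0.22 ± 0.070 (SE), or 16.4% with a 95% interval of 4.80% to 29.3%, and it did not pass adjustment over all genes (edgeR adjusted p = 0.215, unadjusted p = 0.0083). Without Dox it measured 440 and 431 CPM, and in labelled UBA2 KD 535 and 486 CPM, a mean of 435 ± 6.67 against 510 ± 34.5 CPM. There MYC rose, with a log2 fold change of 0.23 ± 0.047, or 17.2% with an interval of 9.70% to 25.2% (edgeR adjusted p = 0.000895). Exposure to Dox and induction of the shRNA cannot be told apart in that difference. In bulk RNA, a change in RNA per cell and a change in the share of cells that express a gene cannot be told apart. The change in TFAP2C KD less that in labelled UBA2 KD was -0.022 ± 0.084 on the log2 scale, with an interval of -0.20 to 0.16 (edgeR adjusted p = 0.951). Leaving out a library leaves its group with 1, which is then assumed to vary like the other group, here with a chi-square per degree of freedom of 2.82 in the controls against 9.98 in TFAP2C KD. Without TFAP2C KD replicate 2, when the control pair alone gave the spread, the log2 fold change of MYC was 0.27 with an adjusted p of 0.00051, and the number of genes called over the whole table went from 111 to 2825. Without TFAP2C KD replicate 1 that number was 537, and without control siRNA replicate 1 it was 49, with MYC at 0.17 in both cases and not called. The call with both libraries is the one reported.

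Of the 9 members tested in TFAP2C KD, 0 passed the edgeR test, and 0 passed with DESeq2. MYC alone had an unadjusted p under 0.05, and without control siRNA replicate 1 none had. Over all genes, 0.74% passed in either direction (0.26% higher and 0.48% lower), and 12.6% had an unadjusted p under 0.05. In 4 of the 9 members the knockdown and control libraries did not overlap, against 44.7% of all genes. Log2 fold changes of the 9 lay between -0.12 and 0.22 with a median of 0.032, while the median over all genes was -0.0038. The median absolute change of the members was 0.060, against 0.11 over all genes. In labelled UBA2 KD, 1 of the 9, MYC, passed, where 9.98% of all genes passed (5.52% higher and 4.47% lower). There 5 members had an unadjusted p under 0.05, against 22.7% of all genes, and 6 did not overlap between groups, against 51.3% of all genes. Log2 fold changes lay between -0.20 and 0.31 with a median of 0.17, and the median absolute change was 0.19 against 0.097 over all genes. The count of 5 fell to 3 with DESeq2, and also without no Dox control replicate 2 or either labelled UBA2 KD replicate.

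**Figure D2:**
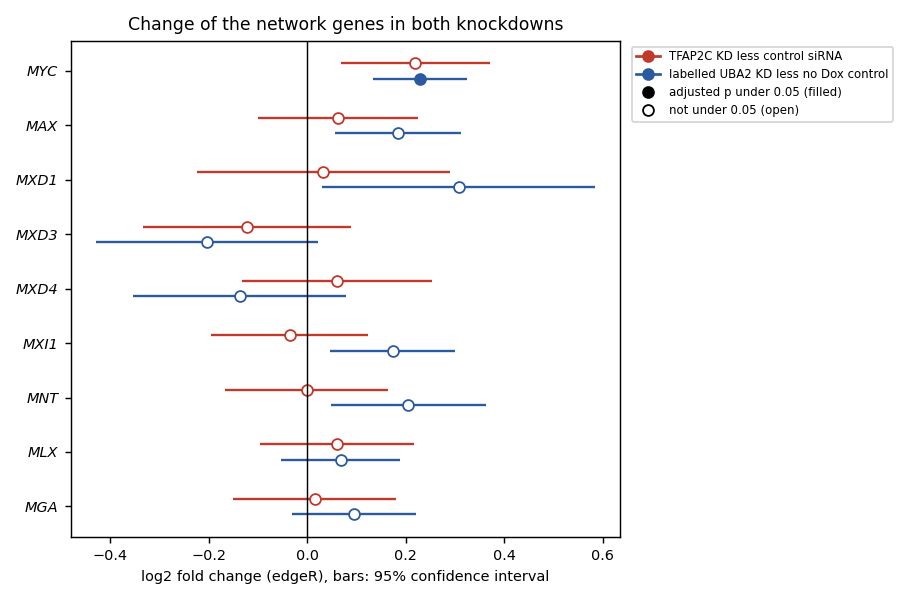
Log2 fold change of each tested network gene in TFAP2C KD (red) and in labelled UBA2 KD (blue), each less its own control, with bars for the 95% confidence interval from edgeR (n = 2 per group). Filled circles have an adjusted p under 0.05 and open circles do not. MYC in labelled UBA2 KD, at 0.23, is the single filled circle, and its 2 estimates of 0.22 and 0.23 lie almost level.

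MAX (chr14:65472819-65569413 in hg19, minus strand), the dimer partner of MYC and its antagonists, lay close to its control in TFAP2C KD. It measured 58.3 and 58.2 CPM with control siRNA and 59.6 and 62.1 CPM in TFAP2C KD (log2 fold change 0.062 ± 0.075, edgeR adjusted p = 0.767). Without Dox it measured 64.1 and 62.2 CPM, and in labelled UBA2 KD 70 and 73.4 CPM, so the groups did not overlap. That difference, 0.19 ± 0.063 on the log2 scale with an interval of 0.057 to 0.31, missed the threshold at an adjusted p of 0.0565. With labelled UBA2 KD replicate 1 left out, the adjusted p was 0.0496, from a fit in which the control pair alone gives the spread. MAX overlaps FNTB on the opposite strand, and the strand setting of the counting is not given in the sources used here. FNTB had 305 to 389 counts per library in the siRNA experiment, where MAX had 1214 to 1429. In the Dox experiment FNTB had 18 to 36 counts (log2 fold change -0.69, adjusted p = 0.166) and CHURC1-FNTB, which covers the same stretch, 52 to 63 counts (0.011, adjusted p = 0.982), where MAX had 1199 to 1367. The part of these genes in the values of MAX was not tested.

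Of the antagonists that compete with MYC for MAX, none passed the test in labelled UBA2 KD, and their estimates lay on both sides of 0. MXI1 (chr10:111967363-112047123 in hg19) and MNT (chr17:2287354-2304258), both repressors through the SIN3 complex, were higher in both libraries than in both controls. MXI1 measured 62.2 and 63.9 CPM without Dox and 69.6 and 72.7 CPM in labelled UBA2 KD (log2 fold change 0.17 ± 0.063, edgeR adjusted p = 0.078). MNT, the antagonist expressed in most proliferating cells, measured 31.5 and 33.9 CPM and then 39.3 and 36.1 CPM (0.21 ± 0.077, adjusted p = 0.0928). Without labelled UBA2 KD replicate 2 the adjusted p of MNT was 0.0415, again with the spread of the control pair alone. MXD1 (chr2:70142173-70170076), a repressor that usually accompanies terminal differentiation, measured 6.89 and 6.28 CPM and then 8.11 and 8.16 CPM, the largest estimate among the members at 0.31 ± 0.14, and it rested on 129 to 152 counts per library (adjusted p = 0.166). Its gene also shares 7888 bp with SNRNP27 on its own strand in the annotation of the siRNA experiment. In TFAP2C KD the libraries of these 3 genes overlapped with their controls. MXI1 measured 95.7 and 100 CPM against 92.2 and 99 CPM, a log2 fold change of -0.036 ± 0.073. MNT measured 59.2 and 61.3 CPM against 62 and 58.4 CPM, at -0.0012 ± 0.076. MXD1 measured 15.8 and 18.3 CPM against 15.9 and 18.9 CPM, at 0.032 ± 0.12. The 3 adjusted p-values were 0.875, 0.996 and 0.933.

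MXD3 (chr5:176732501-176739292 in hg19, minus strand), an atypical family member that is expressed in dividing cells, was the only member lower in every knockdown library of both experiments. It measured 21.3 and 23.7 CPM with control siRNA and 20.7 and 20.6 CPM in TFAP2C KD, a log2 fold change of -0.12 ± 0.097 (edgeR adjusted p = 0.631). Without Dox it measured 12.7 and 13.2 CPM, and in labelled UBA2 KD 11.4 and 11.1 CPM (-0.20 ± 0.11, adjusted p = 0.281). Neither difference passed. MXD3 shares 3151 bp with PRELID1 on the opposite strand and 2284 bp with RAB24 on its own strand in the annotation of the siRNA experiment. PRELID1 had 1123 to 1613 counts per library there, where MXD3 had 461 to 520. In the annotation of the Dox experiment MXD3 shares 1460 bp with PRELID1, which had 1782 to 2016 counts where MXD3 had 206 to 276. Reads in the shared stretches could be split or lost by the counting. The part of these genes in the values of MXD3 was not tested. MXD4 (chr4:2249160-2263739 in hg19), a repressor of quiescent and differentiating cells, overlapped between groups in both experiments, at 88.9 and 96.5 against 105 and 88.2 CPM with siRNA (0.060 ± 0.089, adjusted p = 0.814) and at 15.9 and 20.3 against 16.8 and 16.3 CPM with Dox (-0.14 ± 0.11, adjusted p = 0.487).

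MGA (chr15:41913764-42062141 in hg19), the scaffold of the PRC1.6 repressor complex, overlapped between groups as well. It measured 93.6 and 93.8 CPM with control siRNA and 89.6 and 99.9 CPM in TFAP2C KD (log2 fold change 0.015 ± 0.076, edgeR adjusted p = 0.952), and 126 and 107 CPM without Dox against 126 and 123 CPM in labelled UBA2 KD (0.095 ± 0.062, adjusted p = 0.391). MLX (chr17:40719078-40725221), which pairs with MondoA (MLXIP) and ChREBP (MLXIPL) in the glucose-sensing branch, measured 92.9 and 93 CPM with control siRNA and 100 and 93.7 CPM in TFAP2C KD (0.061 ± 0.072, adjusted p = 0.765). In the Dox experiment it measured 92.9 and 87.2 CPM and then 95.9 and 92.7 CPM (0.068 ± 0.059, adjusted p = 0.553). The MLX estimates were close in both experiments, and neither passed. MLX shares 925 bp with PSMC3IP on the opposite strand in the annotation of the siRNA experiment and 894 bp in that of the Dox experiment. PSMC3IP had 310 to 385 counts per library in the siRNA experiment, where MLX had 1940 to 2401. In the Dox experiment PSMC3IP had 565 to 673 counts, where MLX had 1726 to 1819. The part of PSMC3IP in the values of MLX was not tested.

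When the change in TFAP2C KD was set against that in labelled UBA2 KD in a single fit of all 8 libraries, 0 of the 9 members differed, where 2.37% of the 13179 genes tested did. The antagonists lay on both sides of 0. For MXI1 the change in TFAP2C KD less that in labelled UBA2 KD was -0.22 ± 0.093 on the log2 scale (edgeR adjusted p = 0.285, unadjusted p = 0.0308), for MNT it was -0.22 ± 0.10 (adjusted p = 0.359) and for MXD1 -0.29 ± 0.18 (adjusted p = 0.519). In the opposite direction, MXD4 was at 0.18 ± 0.15 (adjusted p = 0.651) and MXD3 at 0.069 ± 0.13 (adjusted p = 0.882). The difference was -0.092 ± 0.11 for MGA (adjusted p = 0.777), -0.13 ± 0.092 for MAX (adjusted p = 0.556) and -0.019 ± 0.088 for MLX (adjusted p = 0.96). Without TFAP2C KD replicate 2, which leaves that group with 1 library, MXI1 was at -0.28 with an adjusted p of 0.0393.

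The balance within the network was described from summed RPKM, with no test. MYC made up 57.9% and 58.5% of the summed RPKM of the members with control siRNA and 62% and 61% in TFAP2C KD. Without Dox its share was 63.6% in both libraries, and in labelled UBA2 KD it was 66.5% and 64.5%. The ratio of MYC to the sum of its 6 antagonists (MXD1, MXD3, MXD4, MXI1, MNT and MGA) was 2.27 and 2.28 with control siRNA and 2.72 and 2.58 in TFAP2C KD, so the groups did not overlap. In the Dox experiment the ratio was 4.08 and 3.92 and then 4.56 and 4.17, again without overlap. The antagonists' own sum was 40.3 and 41 RPKM without Dox and 43.8 and 43.5 RPKM in labelled UBA2 KD. In TFAP2C KD that sum was 49.7 and 49.1 RPKM, between the controls at 48 and 51 RPKM. The ratio of MYC to MAX overlapped between groups in the Dox experiment (9.36 and 9.44 against 10.4 and 9.01) and not in the siRNA experiment (11.6 and 12.5 against 14.2 and 12.7).

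**Figure D3:**
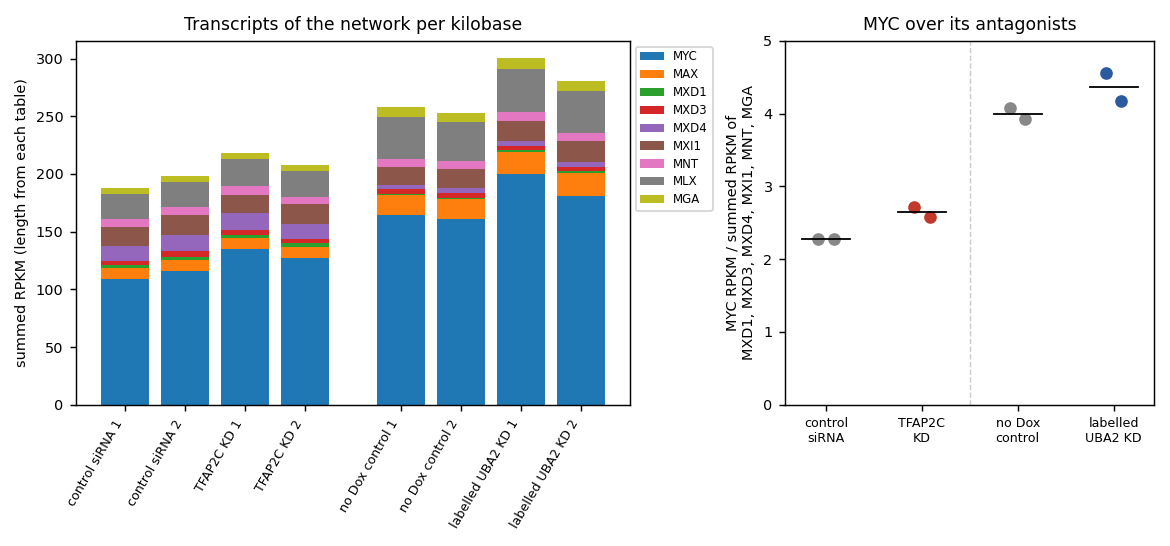
Left, RPKM of the 9 detected network genes stacked for each library, with MYC as the lowest block; right, MYC RPKM divided by the summed RPKM of 6 antagonists, with points for libraries and lines for group means (n = 2). The ratio was 2.27 and 2.28 with control siRNA against 2.72 and 2.58 in TFAP2C KD, and 4.08 and 3.92 without Dox against 4.56 and 4.17 in labelled UBA2 KD.

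The 2 sets of controls differed most in MXD4, whose CPM was 5.12 times as high with control siRNA as without Dox, at the 98.4th percentile of 12158 genes tested in both tables, where the median ratio was 0.949. MXD1 followed at 2.59 times and MNT at 1.84 times, while MYC was at 1.18, MLX at 1.03, MAX at 0.923 and MGA at 0.802 times. Every gene has its own transcript length in each table, such as 6.866 and 3.979 kb for MXD4 and 4.579 and 2.68 kb for MYC. The experiment and the annotation used for counting cannot be told apart in these ratios, and no test was made.

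Few partners of the network passed the test in either experiment. Over all genes the share was also low, at 0.74% in TFAP2C KD and 9.98% in labelled UBA2 KD. With lists this short, 0 or 1 call was not read as a difference from that share. The lists were also chosen with earlier results of these data known, so their counts do not test for an excess of calls. MYCL, MLXIP and MLXIPL had 0 called of 3 in each, and MLXIPL measured 113 and 113 CPM with control siRNA against 85 and 101 CPM in TFAP2C KD (log2 fold change -0.28 ± 0.085, edgeR adjusted p = 0.197). Of 14 MYC coactivators 0 passed in TFAP2C KD. Of 13 SIN3 complex genes, the corepressor of MXD proteins and MNT, 0 passed in TFAP2C KD and 1 in labelled UBA2 KD, where SAP30 fell by 0.34 (adjusted p = 0.041). The 9 genes of PRC1.6 had 0 calls in either.

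Genes that set the life span of MYC protein gave 1 call of 12 in TFAP2C KD and 2 of 12 in labelled UBA2 KD, all lower, where 0.48% and 4.47% of all genes were called lower. In TFAP2C KD, PPP2R5A, a regulatory subunit of the phosphatase PP2A, went from 61.9 and 65.2 CPM to 45 and 47.1 CPM (log2 fold change -0.46, edgeR adjusted p = 0.0171). In labelled UBA2 KD, SKP2, an F-box protein that ubiquitinates MYC, went from 87.3 and 85 CPM to 73.1 and 74.1 CPM (-0.23, adjusted p = 0.0115). AURKA, a mitotic kinase that can stabilise MYC family proteins, fell by 0.22 (adjusted p = 0.0101). Of 11 regulators of MYC transcription, 0 passed in TFAP2C KD, where 0.74% of all genes passed. There was 1 call in each direction in labelled UBA2 KD, where 5.52% of all genes were called higher and 4.47% lower. In labelled UBA2 KD, TCF7L2, the WNT effector that binds MYC enhancers, fell from 267 and 261 CPM to 228 and 226 CPM (-0.22, adjusted p = 0.00193), and CNBP, which binds the MYC promoter, rose by 0.14 (adjusted p = 0.0364). TCF7L2 was also lower in both TFAP2C KD libraries, at 224 and 219 CPM against 255 and 269 CPM, but did not pass there (-0.24, adjusted p = 0.158).

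Targets that MYC activates include NCL and ODC1, neither of which passed in either experiment. In TFAP2C KD 0 of 26 tested passed, against 0.74% of all genes. Of the 26, 23 lay above 0, and their median log2 fold change was 0.11, against -0.0038 over all genes. The lean of the list above 0 was not tested. In labelled UBA2 KD, where MYC itself passed, 4 of 27 passed, 2 in each direction, against 9.98% of all genes, and the median of the 27 was 0.00011. GART and SHMT2, enzymes of purine and one-carbon synthesis, rose by 0.25 and 0.15 (edgeR adjusted p = 0.000125 and 0.0338). LDHA, lactate dehydrogenase, fell by 0.21 (adjusted p = 0.000501) and PTMA, prothymosin alpha, fell by 0.18 (adjusted p = 0.015).

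Genes that MYC represses gave calls in the higher direction alone. In TFAP2C KD 1 of 16 passed, where 0.26% of all genes were called higher. This was CDKN1A, the p21 inhibitor of cyclin-dependent kinases, which rose from 444 and 472 CPM to 744 and 675 CPM (log2 fold change 0.63, edgeR adjusted p = 0.00169). In labelled UBA2 KD 5 of 15 passed, where 5.52% of all genes were called higher. The list was chosen with earlier results of these data known, so neither count tests for an excess. DDIT3, the stress factor CHOP, rose from 12.4 and 12.9 CPM to 31.6 and 32.6 CPM (1.34, adjusted p = 8.53e-13), GADD45B by 0.53 (adjusted p = 4.39e-05) and ATF3 by 0.49 (adjusted p = 0.00104). DDIT3 and ATF3 are also targets of the integrated stress response. Of 4 tested targets of MondoA and MLX, 1 passed in TFAP2C KD, where 0.48% of all genes were called lower. This was ARRDC4, an arrestin-like regulator of glucose uptake, which fell from 52.2 and 51.4 CPM to 37 and 41.1 CPM (-0.41, edgeR adjusted p = 0.048). The other 3 were not called, and 2 of the 4 lay above 0. In labelled UBA2 KD 1 of the 4 passed, where 5.52% of all genes were called higher. This was KLF10, which rose by 0.28 (edgeR adjusted p = 0.00113). TXNIP, the usual sensor of MondoA activity, had at most 0.431 CPM in any library and was not tested.

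**Figure D4:**
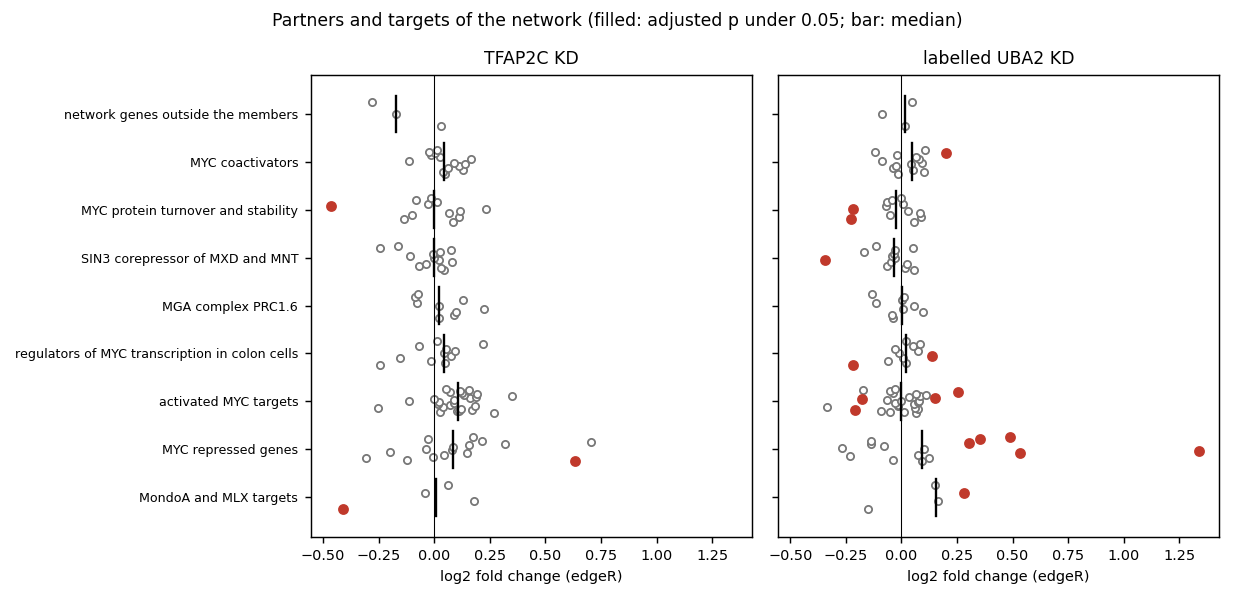
Log2 fold change (edgeR) of each tested gene in 9 lists of network partners and targets, in TFAP2C KD on the left and labelled UBA2 KD on the right, with a black bar at the list's median. Filled circles have an adjusted p under 0.05. CDKN1A at 0.63 in TFAP2C KD and DDIT3 at 1.34 in labelled UBA2 KD, both among MYC repressed genes, lie furthest to the right of the filled circles.

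The genes whose level followed MYC most closely were sought among 9354 genes, with log2 CPM centred within each experiment. The highest Pearson correlation over the 8 libraries was that of SSH1, a cofilin phosphatase, at 0.995, then CES2, a carboxylesterase, at 0.995, and HMGA1, an architectural chromatin protein, at 0.989. SSH1 differed by 0.24 on the log2 scale in each experiment, with an edgeR adjusted p of 0.196 in TFAP2C KD and 0.000962 in labelled UBA2 KD. CES2 differed by 0.23 (adjusted p = 0.256) and 0.22 (adjusted p = 0.0423), and HMGA1 by 0.37 (adjusted p = 0.0569) and 0.33 (adjusted p = 4.39e-07). The correlations describe 8 points that share library depth and scaling with MYC, and they carry no p-value.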

How the data were processed

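mRNA-seq counts of 8 HCT116 libraries in 4 groups of 2 were analysed, grouped and numbered by the sample labels. Per the labels and methods, the authors aligned reads with TopHat2, counted them per gene with HTSeq (0.9.1, submitters' processing notes) and deposited raw counts per gene without normalization, beside a transcript length in kb. The methods name hg19 and RefSeq, but the table of the siRNA experiment lists positions of GRCh38 and that of the Dox experiment positions of hg19. Each table was therefore fitted alone, and genes were matched by symbol. The strand setting of the counting is not given in the sources used here. All count columns belonged to a sample.

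Low counts were removed by filterByExpr and libraries scaled by TMM in edgeR 4.0.16 (limma 3.58.1, R 4.3.3). TFAP2C KD was tested against control siRNA, and labelled UBA2 KD against no Dox, by the two-sided quasi-likelihood test with Benjamini-Hochberg adjustment over all tested genes and a threshold of 0.05. The difference of changes was a contrast over all 8 libraries and the symbols shared by both tables. CPM were computed per library and divided by the deposited length for RPKM. edgeR put the biological coefficient of variation at 6.28% for the siRNA and 3.56% for the Dox experiment. With 2 libraries per group an exact permutation test on a single gene cannot reach 0.05. Simulated data held 200 genes that differed by 1 on the log2 scale. Of these, 94% were recovered for the siRNA experiment (14816 genes), 96% for the Dox experiment (13274 genes) and 90% for the difference (13104 genes). Changes of the members in either experiment lay between -0.20 and 0.31, so this recovery does not describe changes of their size. Each simulation used a single coefficient of variation for all genes and groups, whereas the TFAP2C KD libraries stood further apart than their controls.

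All members are given, called or not. Of each list of partners, targets or cell markers, the counts are given with at most the 3 largest called changes in each direction, and the 3 genes most correlated with MYC are named. MYCL, MLXIP, MLXIPL, TXNIP, NCL, ODC1, overlapping genes, cell markers named for their level and TCF7L2 in TFAP2C KD are named beyond this rule. The members and lists were chosen with earlier results of these data known. Alternatives were other scaling, DESeq2 1.42.0, other filters, a replicate block, a fit of all 8 libraries and leaving out each library. The promoter of MYC was not analysed here. The result of the MYC coactivators in labelled UBA2 KD is not reported here.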

Additional observations from a re-analysis of the deposited data

How the results depend on the processing

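MYC in labelled UBA2 KD passed under all 11 alternatives, with log2 fold changes of 0.16 to 0.30 and adjusted p-values of 2.27e-07 to 0.0336. In TFAP2C KD, 398 genes were called without a filter, 172 with the replicate block and 271 in the fit of all 8 libraries, against 111, and leaving out each library gave 49 (without control siRNA replicate 1) to 2825 (without TFAP2C KD replicate 2). In labelled UBA2 KD, DESeq2 called 673 and the fit of all 8 libraries 696, against 1336, and leaving out each library gave 833 (without no Dox control replicate 2) to 1271. The labels tie replicate numbers to no shared culture or day, and over all genes the deviations of same-numbered libraries correlated at -0.139 and 0.0744, so the numbers were not used as pairs. Among genes of the lists with few counts, CCND2, TXNIP and PTPRC were higher in replicate 2 of both Dox groups (CCND2 0.107 and 1.2 CPM, then 0.0555 and 1.34 CPM). With the replicate block 0 members were called in TFAP2C KD and 1 in labelled UBA2 KD, as without it. Leaving out each library, with the lone library assumed to vary like the other groups, gave 0 to 2 called members in TFAP2C KD, MYC at 0.17 to 0.27 and MXD4 at -0.069 to 0.18, both called without TFAP2C KD replicate 2 (adjusted p = 0.00051 and 0.0451). It gave 1 to 2 called members in labelled UBA2 KD and 0 to 1 for the difference of changes. Members with an unadjusted p under 0.05, counted as an alternative chosen after seeing the data, numbered 0 to 2 in TFAP2C KD and 3 to 6 in labelled UBA2 KD. Estimates near 0 changed sign, and the cause was not tested. MNT in TFAP2C KD was at 0.00053 with DESeq2 size factors, 0.00046 with the DESeq2 test and 0.0044 without a filter. MGA in TFAP2C KD was at -0.012 with library size alone, a scaling that moved the median over all genes to -0.032 and -0.026. Over the left-out libraries, MNT lay at -0.043 to 0.044, MGA at -0.062 to 0.093, MXD1 at -0.092 to 0.16 and MXI1 at -0.084 to 0.016 in TFAP2C KD, and MXD4 at -0.29 to 0.054 and MGA at -0.018 to 0.22 in labelled UBA2 KD. The difference of changes lay at -0.091 to 0.055 for MYC, -0.0039 to 0.16 for MXD3, -0.0062 to 0.35 for MXD4, -0.057 to 0.025 for MLX and -0.20 to 0.021 for MGA. MXD1 in the Dox experiment rests on the fewest counts of the tested members, which limits its precision.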
